A study of Arabidopsis thaliana with 36 samples.

Results

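Aliphatic glucosinolates are defence compounds that Arabidopsis makes from methionine, and the transcripts described here belong to 9 genes of that pathway. They were taken by their TAIR identifiers, as a fixed list of 3 transcription factors and 6 biosynthetic genes: MYB28 (AT5G61420), MYB29 (AT5G07690), MYB76 (AT5G07700), BCAT4 (AT3G19710), MAM1 (AT5G23010), MAM3 (AT5G23020), CYP79F1 (AT1G16410), CYP79F2 (AT1G16400) and CYP83A1 (AT4G13770). All 9 were among the 33602 genes counted and among the 20926 genes tested.

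RNA-seq was performed on 7-day-old whole seedlings of uvr8-6, which lacks the UV-B photoreceptor UVR8, of hfr1-101, a mutant of the shade regulator HFR1, and of wild type, each mutant being a single allele in the Columbia background. For 3 h, seedlings of each genotype were given low R:FR (+FR), supplemental narrowband UV-B (+UVB) or both (+FR+UVB), or stayed in white light (WL). White light was 60 µmol m-2 s-1 with an R:FR of 4.7, UV-B was 0.06 mW cm-2, and low R:FR is given as 0.05 in the growth description and as 0.08 in the treatment description. Each of the 12 combinations had 3 libraries from independent plates, each made from 30 seedlings grown at 22 °C.

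The libraries held 9749710 to 21175260 counts, with a median of 18488977, and 3 counts correspond to 0.128 to 0.317 CPM, the counts scaled to a common library total. UVR8 was at most 17.0 CPM in the 12 uvr8-6 libraries and at least 65.6 CPM in the other 24. The HFR1 transcript was not lower in hfr1-101. Under +FR and +FR+UVB it was 101 to 152 CPM in 6 hfr1-101 libraries, against 34.7 to 88.4 CPM in 6 wild-type libraries, without overlap, and in WL it was 2.85 to 5.17 CPM, against 2.41 to 4.94 CPM, which overlapped. CHS, a flavonoid gene induced through UVR8, was at least 5250 CPM in the 12 wild-type and hfr1-101 libraries with UV-B and at most 635 CPM in the other 24. PIL1, a shade marker, was at least 56.9 CPM in the 9 +FR libraries and at most 1.93 CPM in the 18 WL and +UVB libraries.

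In the pathway, BCAT4 removes the amino group of methionine, and MAM1 and MAM3 then condense the product with acetyl-CoA, which lengthens the side chain in repeated rounds. MAM1 serves the early rounds, whereas MAM3 also makes the long chains. CYP79F1 converts chain-elongated methionines of all lengths to aldoximes, CYP79F2 converts only the long ones, and CYP83A1 oxidises the aldoximes further towards the glucosinolate core. MYB28, MYB29 and MYB76 are related R2R3-MYB factors that activate these genes, and the compounds are known as a chemical defence of the Brassicaceae against chewing insects.

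In the RefSeq annotation of TAIR10.1, 3 pairs of the genes are neighbours. CYP79F2 (chr1:5605044-5607498, plus strand) lies 1183 bases before CYP79F1 (chr1:5608682-5612064, plus strand), and their coding sequences are 91.4% identical. MAM1 (chr5:7703041-7706973, plus strand) and MAM3 (chr5:7718118-7721866, plus strand, listed there as IMS2) are 11144 bases apart and 83.8% identical. MYB29 (chr5:2446669-2448584, plus strand) and MYB76 (chr5:2450027-2451807, plus strand) are 1442 bases apart and 77.6% identical. BCAT4 (chr3:6846969-6849582), CYP83A1 (chr4:7990429-7992429) and MYB28 (chr5:24689069-24691187) are single genes on the minus strand. Of all 100-base windows within an exon of these genes, 99.94 to 100% occurred once in the genome, so that reads of CYP79F1 and CYP79F2, or of MAM1 and MAM3, can be told apart at this read length.

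The promoters of 3 members are shown, because their levels moved strongly with UV-B (BCAT4 and CYP79F2) or because they held a G-box (CYP83A1). Each is the 250 bases before the annotated gene start, read 5′ to 3′ on the strand of the gene from TAIR10.1, with every ACGT core in capitals. This tetramer is the core of the elements bound by bZIP factors such as HY5. In CYP83A1 the capitals include the whole G-box, CACGTG. The windows are chr3:6849583-6849832 (minus strand) for BCAT4, chr1:5604794-5605043 (plus strand) for CYP79F2 and chr4:7992430-7992679 (minus strand) for CYP83A1.
BCAT4: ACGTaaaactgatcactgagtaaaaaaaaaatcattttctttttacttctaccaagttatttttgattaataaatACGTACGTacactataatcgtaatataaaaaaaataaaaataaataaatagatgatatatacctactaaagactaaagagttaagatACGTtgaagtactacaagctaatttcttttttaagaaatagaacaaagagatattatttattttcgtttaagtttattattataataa
CYP79F2: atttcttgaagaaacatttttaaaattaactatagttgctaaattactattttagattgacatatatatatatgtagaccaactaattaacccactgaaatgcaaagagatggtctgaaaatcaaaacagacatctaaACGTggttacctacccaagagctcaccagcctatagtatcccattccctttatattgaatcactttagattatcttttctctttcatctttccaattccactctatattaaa
CYP83A1: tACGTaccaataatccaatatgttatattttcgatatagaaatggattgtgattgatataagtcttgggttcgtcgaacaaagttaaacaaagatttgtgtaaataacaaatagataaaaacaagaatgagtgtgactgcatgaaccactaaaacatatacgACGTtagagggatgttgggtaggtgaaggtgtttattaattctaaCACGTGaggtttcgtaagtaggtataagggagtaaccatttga

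The ACGT core was present in this window in 7 of the 9 genes, against 44.1% of 27443 promoters, and MYB29 and MAM1 held none. BCAT4 had 4 copies, starting 250, 175, 171 and 88 bases before the gene start (positions -250, -175, -171 and -88). The G-box, CACGTG, was found only in CYP83A1, at position -43, against 6.49% of promoters. The elements CACATG and CATGTG, which read as each other on the opposite strand, were in 0 of the 9 windows and in 11.1% of all promoters. G-box and ACGT core are the same letters on both strands, and every G-box holds an ACGT core. These matches describe letters in a window and were not tested as binding sites.

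In wild-type WL seedlings, levels per kilobase of annotated exon ranked the genes as CYP83A1 (80.6 ± 18.7 CPM per kb, SD, n = 3), BCAT4 (59.0 ± 13.9), MAM1 (54.8 ± 14.5), MAM3 (42.0 ± 5.59), MYB28 (35.3 ± 2.41), CYP79F2 (18.3 ± 2.76), CYP79F1 (14.1 ± 6.24), MYB29 (6.44 ± 2.61) and MYB76 (0.803 ± 0.295). MYB28 was the most abundant of the 3 factors. MYB76 had only 2 to 31 counts in any library, so its values rest on few reads, whereas MYB29 had 59 to 310 counts and the other 7 genes at least 96. The annotated exons of CYP79F1 cover 3272 bases, against 2018 bases for CYP79F2, which lowers its level per kilobase.

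**Figure D1:**
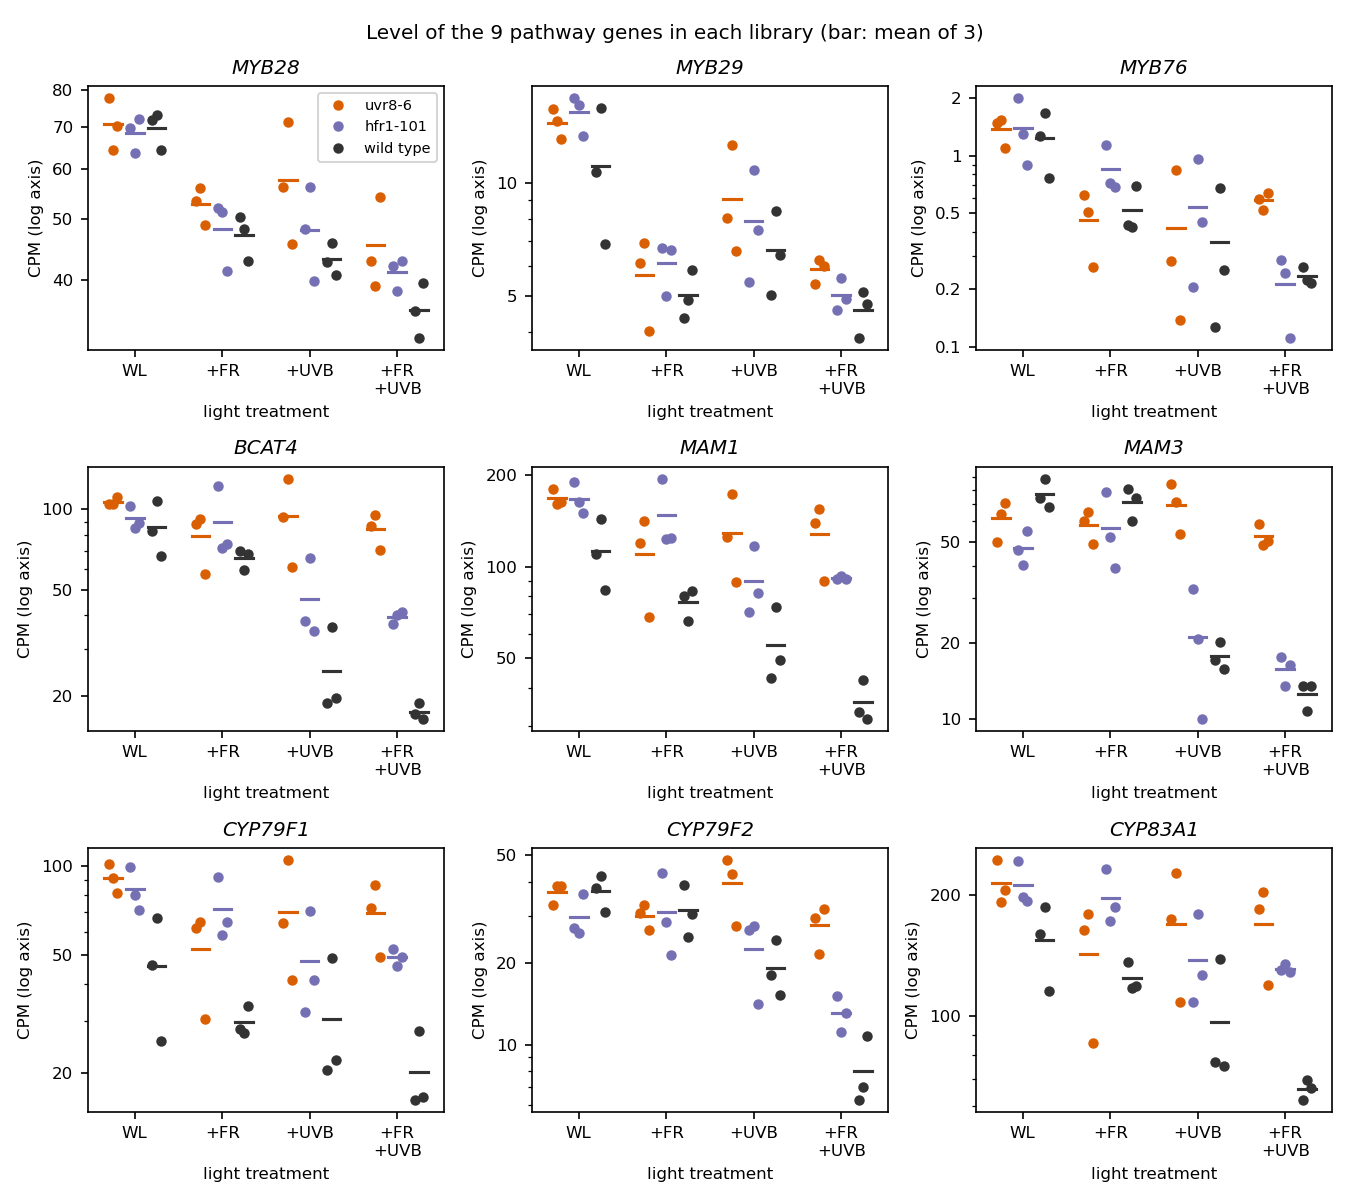
CPM (log axis) of the 9 genes in each of the 36 libraries, by light treatment, with uvr8-6 in orange, hfr1-101 in violet and wild type in black; points are libraries and bars are means of 3. With UV-B, the BCAT4 and MAM3 points of wild type lie below all those of uvr8-6, for example 15.7 to 20.2 CPM of MAM3 in wild-type +UVB libraries.

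The first question was what UV-B did to the pathway in white light. In wild type, 8 of the 9 genes were lower under +UVB than under WL (edgeR quasi-likelihood test, adjusted p under 0.05, called passing from here on), and none was higher. For comparison, 24.7% of all genes tested passed as lower in this contrast. The median log2 fold change was -0.94 over the 9 genes and -0.05 over all genes. Of the 9, 4 (BCAT4, MAM1, MAM3 and MYB76) were also lower by more than 2-fold, against 6.79% of all genes. Among all genes that passed in either direction, 49.9% were higher with TMM scaling and 32.4% with scaling by library size, which shifts the median of all genes by -0.18 on the log2 scale. None of the 9 genes changed direction with it. Because whole seedlings were sequenced, fewer cells that express a gene and less RNA per cell cannot be told apart.

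MAM3, the synthase of the long chains, had the largest fall in wild type. It had 17.2, 20.2 and 15.7 CPM in the wild-type +UVB libraries, against 74.2, 88.2 and 68.2 CPM in the WL libraries. The groups lay far apart, and the log2 fold change was -2.12 ± 0.27 (SE, edgeR adjusted p = 2.3e-07). BCAT4, the entry step, had 18.8, 36.1 and 19.6 CPM under +UVB, against 82.8, 107 and 67.0 CPM under WL. All +UVB libraries were below all WL libraries, although replicate 2 under +UVB stood above its companions (log2 fold change -1.79 ± 0.27, edgeR adjusted p = 3.3e-06).

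MAM1, the synthase of the early rounds, had 42.9, 73.5 and 49.4 CPM under +UVB, against 110, 143 and 84.1 CPM under WL. Its fall was smaller than that of its neighbour MAM3 (log2 fold change -1.02 ± 0.27, edgeR adjusted p = 0.002), and the difference between these genes was not tested. CYP79F2, for the long chains, had 18.1, 24.4 and 15.2 CPM under +UVB, against 38.0, 42.0 and 31.0 CPM under WL (log2 fold change -0.94 ± 0.26, edgeR adjusted p = 0.0035). In both genes the groups did not overlap. CYP79F1, its partner for all chain lengths, was the gene that did not pass. It had 20.5, 48.9 and 22.1 CPM under +UVB, against 46.2, 66.5 and 25.6 CPM under WL, so that the groups overlapped widely (log2 fold change -0.59 ± 0.37, edgeR adjusted p = 0.19).

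The remaining members fell less or rested on fewer reads. CYP83A1 had 76.8, 138 and 75.1 CPM under +UVB, against 160, 186 and 116 CPM under WL. Its groups overlapped through replicate 2 under +UVB (log2 fold change -0.67 ± 0.26, edgeR adjusted p = 0.036). MYB28 had 42.7, 45.9 and 40.9 CPM under +UVB, against 71.8, 73.2 and 64.3 CPM under WL, with little spread in either group (log2 fold change -0.69 ± 0.14, edgeR adjusted p = 0.00011). MYB29 had 5.02, 8.42 and 6.45 CPM under +UVB, against 10.7, 15.9 and 6.86 CPM under WL. These ranges overlapped, and its call was lost without WL replicate 2 (log2 fold change -0.40), +UVB replicate 1 (-0.58) or +UVB replicate 3 (-0.73), against -0.75 ± 0.26 with all libraries. MYB76 was 0.127, 0.681 and 0.253 CPM under +UVB, against 1.27, 1.67 and 0.762 CPM under WL (log2 fold change -1.77 ± 0.54, edgeR adjusted p = 0.0072), which moved to -2.65 without +UVB replicate 2.

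Leaving out each wild-type library in turn gave 5 to 9 passing genes. Without +UVB replicate 1 the calls of MYB29, MYB76 and CYP83A1 were lost and 5 remained, and without +UVB replicate 2 CYP79F1 also passed (log2 fold change -1.11, edgeR adjusted p = 0.023). CYP83A1 also lost its call without WL replicate 1 (log2 fold change -0.64), WL replicate 2 (-0.51) or +UVB replicate 3 (-0.52). The calls of MYB28, BCAT4, MAM1, MAM3 and CYP79F2 held in every one of these fits.

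The next question was whether UV-B acted on the pathway in the same way in seedlings that also received low R:FR. In wild type, combined light gave 6 of the 9 genes a lower level than +FR did, in a contrast where 27.5% of all genes passed as lower, and 4 of these (BCAT4, MAM1, MAM3 and CYP79F2) were lower by more than 2-fold, against 8.53% of all genes. The median log2 fold change was -1.097 over the 9 genes and -0.04 over all genes. Of all passing genes, 49.4% were higher with TMM and 27.0% with library size, a shift of the median by -0.27.

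MAM3 had 13.6, 10.8 and 13.5 CPM in the wild-type +FR+UVB libraries, against 80.3, 60.1 and 74.0 CPM in the +FR libraries (log2 fold change -2.50 ± 0.28, edgeR adjusted p = 1.3e-08). CYP79F2 had 6.29, 7.02 and 10.8 CPM under +FR+UVB, against 38.8, 25.1 and 30.4 CPM under +FR (log2 fold change -1.96 ± 0.28, edgeR adjusted p = 7.8e-07). BCAT4 had 17.0, 18.8 and 16.4 CPM under +FR+UVB, against 69.6, 59.2 and 68.3 CPM under +FR (log2 fold change -1.92 ± 0.27, edgeR adjusted p = 1.1e-06). In each of these 3 genes every +FR+UVB library was below every +FR library by a wide margin.

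MAM1 had 33.2, 42.4 and 31.6 CPM under +FR+UVB, against 80.1, 66.2 and 83.0 CPM under +FR (log2 fold change -1.097 ± 0.27, edgeR adjusted p = 0.001). CYP83A1 had 62.1, 69.7 and 66.4 CPM under +FR+UVB, against 136, 118 and 119 CPM under +FR (log2 fold change -0.91 ± 0.27, edgeR adjusted p = 0.0047). Both were separated between the light treatments. MYB28 fell less, with 35.8, 32.5 and 39.6 CPM under +FR+UVB, against 50.3, 48.2 and 43.0 CPM under +FR (log2 fold change -0.39 ± 0.14, edgeR adjusted p = 0.017). Its call was lost without +FR replicate 1 (log2 fold change -0.33), +FR replicate 2 (-0.36) or +FR+UVB replicate 2 (-0.32). CYP79F1 had 16.3, 27.7 and 16.6 CPM under +FR+UVB, against 28.1, 27.2 and 33.7 CPM under +FR, which overlapped (log2 fold change -0.55 ± 0.37, edgeR adjusted p = 0.22). MYB29 differed by -0.13 ± 0.28 and MYB76 by -1.13 ± 0.61 on the log2 scale, and neither passed (edgeR adjusted p = 0.72 and 0.12).

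Low R:FR alone was compared with white light next. In wild type, 2 of the 9 genes were lower under +FR than under WL, against 4.15% of all genes, namely MYB29 and MYB28. MYB29 had 4.35, 4.86 and 5.85 CPM under +FR, against 10.7, 15.9 and 6.86 CPM under WL (log2 fold change -1.15 ± 0.27, edgeR adjusted p = 0.0046). The groups did not overlap, but the call was lost without WL replicate 2 (log2 fold change -0.80, edgeR adjusted p = 0.076). MYB28 had 50.3, 48.2 and 43.0 CPM under +FR, against 71.8, 73.2 and 64.3 CPM under WL (log2 fold change -0.56 ± 0.14, edgeR adjusted p = 0.006). MYB76 did not pass (log2 fold change -1.23 ± 0.50, edgeR adjusted p = 0.12), nor did the 6 biosynthetic genes, with log2 fold changes of -0.64 to -0.11.

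The same contrast was made in the mutants. In hfr1-101, MYB28 (log2 fold change -0.50 ± 0.14) and MYB29 (-1.34 ± 0.26) passed, which is 2 of 9 against 4.76% of all genes, and MYB28 lost its call without +FR replicate 3 (-0.42). In uvr8-6, MYB29 alone passed (-1.36 ± 0.26), which is 1 of 9 against 2.64% of all genes, while MYB28 (-0.42 ± 0.13, edgeR adjusted p = 0.051) and MYB76 (-1.55 ± 0.49, edgeR adjusted p = 0.051) lay just outside the threshold. Under DESeq2, edgeR's likelihood ratio test and its current quasi-likelihood test, 3 of 9 passed in uvr8-6. The difference of the +FR effect between uvr8-6 and wild type passed for 0 of 9 genes in edgeR, with 0 at an unadjusted p under 0.05 and 0 in DESeq2. The share of all genes was 0% (0 of 20926, with 719 at an unadjusted p under 0.05 and 1 in DESeq2). For hfr1-101 these counts were also 0 of 9 genes, 0 unadjusted and 0 in DESeq2, and again 0% of all genes (598 unadjusted, 0 in DESeq2).

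When low R:FR was added to UV-B in wild type, 1 of the 9 genes passed as lower, CYP79F2, against 1.46% of all genes. CYP79F2 had 6.29, 7.02 and 10.8 CPM under +FR+UVB, against 18.1, 24.4 and 15.2 CPM under +UVB (log2 fold change -1.25 ± 0.28, edgeR adjusted p = 0.0097). The call was lost without +FR+UVB replicate 1 (log2 fold change -1.11), +FR+UVB replicate 2 (-1.16) or +UVB replicate 2 (-1.04). The other 8 genes did not pass but also had negative log2 fold changes, between -0.63 and -0.26. In MYB28, BCAT4, MAM1, MAM3 and CYP83A1 the libraries did not overlap, and the share of all genes without overlap was not determined. The gap was narrow in BCAT4 (18.77 to 18.82 CPM) and in MAM1 (42.37 to 42.86 CPM). Whether CYP79F2 differed from the other 8 genes was not tested. This contrast passed for 0 of 9 genes in uvr8-6 (2 at an unadjusted p under 0.05, 0 in DESeq2), where 1.77% of all genes passed as lower. In hfr1-101 it passed for 0 of 9 (3 at an unadjusted p under 0.05, 1 in DESeq2), against 1.99% of all genes. Without hfr1-101 +UVB replicate 3, 2 genes of hfr1-101 passed, MAM3 (log2 fold change -0.75) and CYP79F2 (-1.03). Without uvr8-6 replicate 3 of either group, MYB28 passed in uvr8-6 (-0.51 without the +FR+UVB library and -0.50 without the +UVB library).

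Whether the effects of UV-B and low R:FR added up on the log2 scale in wild type was tested as an interaction. It passed for 0 of 9 genes in edgeR (1 at an unadjusted p under 0.05, 0 in DESeq2), against 1.17% of all genes in either direction. The gene with the unadjusted p was CYP79F2, with an excess of -1.02 ± 0.37 (edgeR adjusted p = 0.24).

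**Figure D2:**
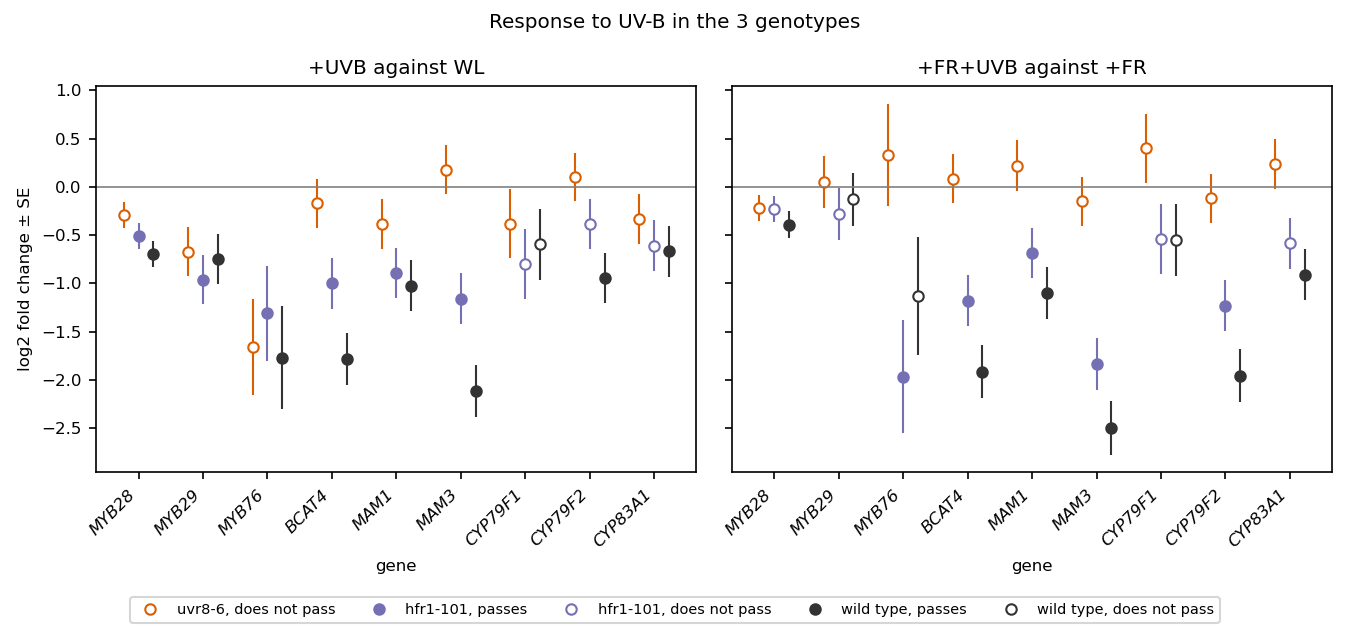
Log2 fold change ± SE of each gene for +UVB against WL (left) and +FR+UVB against +FR (right), with uvr8-6 in orange, hfr1-101 in violet and wild type in black; filled points passed the edgeR test and open points did not. No uvr8-6 point is filled, and MAM3 in wild type is the lowest filled point of each panel (-2.12 and -2.50).

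The UV-B effect was then measured in uvr8-6, the single allele that lacks the photoreceptor. None of the 9 genes passed in uvr8-6 under +UVB against WL (3 at an unadjusted p under 0.05, 0 in DESeq2), where 0.975% of all genes passed as lower. The median log2 fold change of the 9 was -0.33. MAM3 had 84.5, 71.5 and 53.6 CPM in the uvr8-6 +UVB libraries, against 49.7, 64.1 and 71.2 CPM in the WL libraries (log2 fold change 0.18 ± 0.25). BCAT4 had 93.5, 130 and 61.0 CPM under +UVB, against 105, 105 and 111 CPM under WL (-0.17 ± 0.26). In both genes the libraries of the light treatments were intermingled.

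The 3 unadjusted p-values were those of the factors. MYB76 was 0.281, 0.838 and 0.138 CPM in uvr8-6 under +UVB, against 1.48, 1.54 and 1.103 CPM under WL (log2 fold change -1.66 ± 0.50, edgeR adjusted p = 0.067). It passed without +UVB replicate 2 (log2 fold change -2.74) and, with a replicate block, at an edgeR adjusted p of 0.04. MYB29 had 8.07, 12.6 and 6.59 CPM under +UVB, against 15.8, 14.6 and 13.1 CPM under WL (log2 fold change -0.67 ± 0.25, edgeR adjusted p = 0.16). MYB28 had a log2 fold change of -0.29 ± 0.13 (edgeR adjusted p = 0.25).

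With low R:FR in the background, uvr8-6 also had 0 of 9 genes passing under +FR+UVB against +FR (0 at an unadjusted p under 0.05, 0 in DESeq2), against 0.76% of all genes as lower. MAM3 had 58.6, 48.6 and 50.5 CPM under +FR+UVB, against 60.5, 65.1 and 49.0 CPM under +FR. BCAT4 had 86.6, 95.3 and 70.4 CPM under +FR+UVB, against 88.4, 92.3 and 57.1 CPM under +FR. CYP79F2 had 29.4, 21.7 and 31.8 CPM under +FR+UVB, against 30.6, 32.9 and 26.6 CPM under +FR. The log2 fold changes of all 9 lay between -0.21 and 0.40, and the groups overlapped in each of these 3 genes.

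The difference of the UV-B effect between uvr8-6 and wild type was tested directly. In white light it passed for 3 of 9 genes, all with the weaker fall in uvr8-6, against 13.5% of all genes passing in that direction. The share of passing genes in that direction was 45.3% with TMM and 72.6% with library size, and with low R:FR it was 49.2% and 76.5%. These were MAM3 (difference of log2 fold changes 2.30 ± 0.37, edgeR adjusted p = 2.6e-05), BCAT4 (1.62 ± 0.37, adjusted p = 0.0015) and CYP79F2 (1.04 ± 0.36, adjusted p = 0.03). The CYP79F2 call was lost when any of 7 libraries was left out, with differences of 0.87 to 1.02. With low R:FR present, 5 of 9 genes passed in that direction, against 16.4% of all genes, namely MAM3 (2.35 ± 0.37), BCAT4 (2.00 ± 0.37), CYP79F2 (1.84 ± 0.37), MAM1 (1.32 ± 0.37) and CYP83A1 (1.15 ± 0.37). CYP83A1 lost its call without uvr8-6 +FR replicate 3 (0.88) or +FR+UVB replicate 2 (0.99). For the 3 MYB factors this difference did not pass in either background, and it was 0.08 to 0.40 in white light and 0.18 to 1.47 with low R:FR.

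The genotypes were also compared by level within each light. In WL and in +FR, 0 of 9 genes passed between uvr8-6 and wild type (edgeR; 2 and 1 at an unadjusted p under 0.05, 0 and 0 in DESeq2), where 0.172% and 0.234% of all genes passed in either direction. The largest estimate was that of CYP79F1, at 0.99 ± 0.36 in WL, without overlap, and 0.82 ± 0.37 in +FR, with overlap. In WL, MAM1 (0.58 ± 0.26) and CYP83A1 (0.47 ± 0.26) were also higher in uvr8-6 without overlap. The share of all genes without overlap was not determined. Under +UVB, 7 of 9 were higher in uvr8-6, against 24.7% of all genes, and under +FR+UVB 7 of 9, against 23.7%. Of all passing genes, 50.9% and 50.4% were higher in uvr8-6 with TMM, and 74.9% and 79.0% with library size, shifts of the median by 0.24 and 0.29. MYB29 and MYB76 were the exceptions in both. BCAT4 had 93.5, 130 and 61.0 CPM in uvr8-6 under +UVB, against 18.8, 36.1 and 19.6 CPM in wild type, a log2 fold change of 1.93 ± 0.27 (edgeR adjusted p = 1.2e-06). Under +FR+UVB it had 86.6, 95.3 and 70.4 CPM in uvr8-6, against 17.0, 18.8 and 16.4 CPM in wild type (2.27 ± 0.28, edgeR adjusted p = 1e-07).

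Under +FR+UVB the other enzymes differed by log2 fold changes of 1.35 to 2.06, and every uvr8-6 library was above every wild-type library in all 6 enzyme genes. MYB29 (0.36 ± 0.27) and MYB76 (1.305 ± 0.60) were separated in the same way but did not pass, so 8 of the 9 genes had no overlap. Of all genes, 47% passed in either direction in this contrast. The share of all genes without overlap was not determined, so the separation is not shown to be particular to these genes. MYB28 differed by only 0.34 ± 0.14 (edgeR adjusted p = 0.042) and its libraries overlapped. Its call was lost without wild-type replicate 1 (0.34) or 2 (0.27) or uvr8-6 replicate 1 (0.37) or 3 (0.18), with the fit restricted to these genotypes (0.32) and with all genes of at least 1 count (0.33). Under +UVB, 4 genes passed without uvr8-6 replicate 2, when MYB28 (0.23), CYP79F1 (0.78) and CYP83A1 (0.54) lost their calls. CYP79F1 (0.98) and CYP83A1 (0.67) also lost them without wild-type replicate 1, and CYP83A1 (0.66) without wild-type replicate 3.

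**Figure D3:**
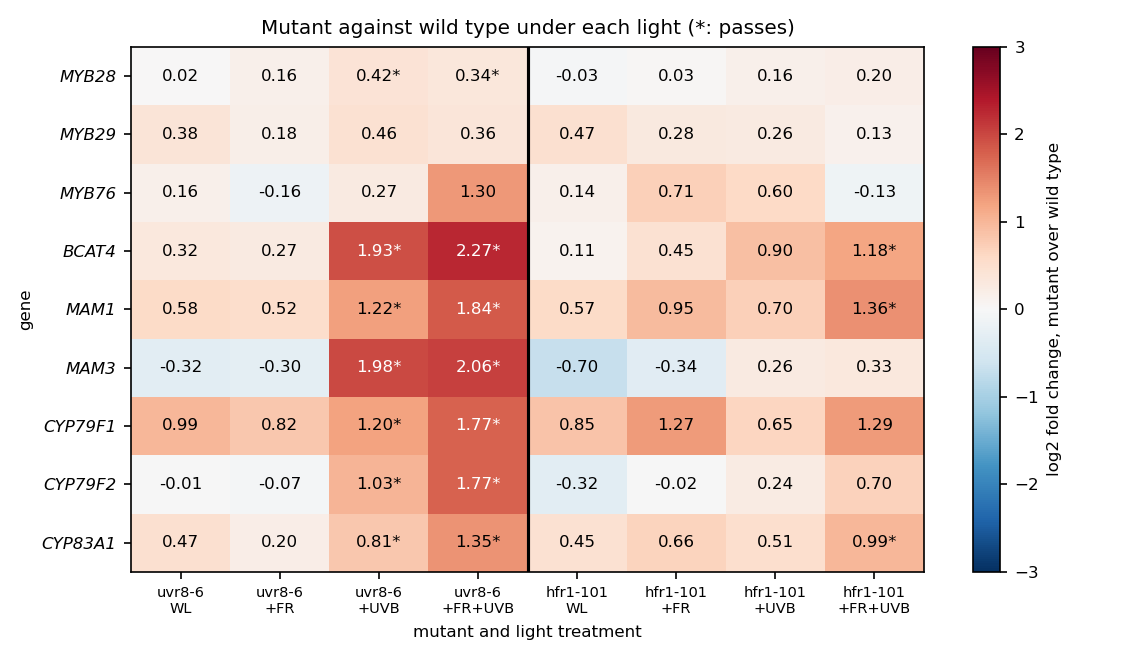
Log2 fold change of uvr8-6 (left 4 columns) and hfr1-101 (right 4 columns) over wild type in each light, with the value printed in each cell and an asterisk where it passed the edgeR test. The strongest cells are those of uvr8-6 with UV-B, such as BCAT4 at 2.27 under +FR+UVB, and hfr1-101 has asterisks only under +FR+UVB.

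The effect of UV-B was also measured in hfr1-101. Under +UVB against WL, 6 of 9 genes were lower, against 24.9% of all genes, and under +FR+UVB against +FR 5 of 9 were lower, also against 24.9%. Of all passing genes, 49.97% and 50.06% were higher with TMM, and 39.96% and 25.39% with library size. MAM3 had 32.6, 20.7 and 10.06 CPM in the hfr1-101 +UVB libraries, against 46.3, 40.5 and 55.2 CPM in the WL libraries, a wide spread under UV-B but no overlap (log2 fold change -1.16 ± 0.26, edgeR adjusted p = 0.00062). BCAT4 had 38.0, 65.5 and 35.0 CPM under +UVB, against 103, 85.3 and 89.2 CPM under WL (-1.001 ± 0.26, edgeR adjusted p = 0.0023). MYB28 (-0.51), MYB29 (-0.96), MYB76 (-1.31) and MAM1 (-0.89) were the other genes that passed. MYB76 lost its call without WL replicate 1 (-1.02) or 2 (-1.34) or +UVB replicate 1 (-0.91) or 3 (-1.20), and its value was -2.04 without +UVB replicate 2.

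With low R:FR present, MAM3 had 17.6, 13.5 and 16.4 CPM in hfr1-101 under +FR+UVB, against 78.5, 52.1 and 39.4 CPM under +FR (log2 fold change -1.84 ± 0.27, edgeR adjusted p = 2e-06). CYP79F2 had 15.1, 11.2 and 13.1 CPM under +FR+UVB, against 42.9, 28.5 and 21.4 CPM under +FR (-1.23 ± 0.26, edgeR adjusted p = 0.00031). MAM3 and CYP79F2 were separated between the light treatments, as were BCAT4 (-1.18 ± 0.26) and MYB76 (-1.97 ± 0.58, on 2 to 5 counts under +FR+UVB). MAM1, CYP79F1 (-0.54 ± 0.36) and CYP83A1 (-0.59 ± 0.26) had no overlap either, although CYP79F1 and CYP83A1 did not pass. The share of all genes without overlap was not determined. MAM1 passed with a smaller change (-0.68 ± 0.26), and its call was lost without +FR replicate 1 (-0.44) or any of the +FR+UVB libraries (-0.70 to -0.68).

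The UV-B effect itself was not shown to differ between hfr1-101 and wild type. The test of the difference passed for 0 of 9 genes in white light (edgeR; 2 at an unadjusted p under 0.05, 0 in DESeq2), against 0% of all genes (989 unadjusted, 3 in DESeq2). With low R:FR it passed for 0 of 9 genes (0 unadjusted, 0 in DESeq2), against 0.0669% of all genes. The estimates were nevertheless not near 0 in all genes. MAM3 differed by 0.96 ± 0.37 in white light and 0.66 ± 0.38 with low R:FR, and BCAT4 by 0.78 ± 0.37 and 0.73 ± 0.37, the positive sign meaning a weaker fall in hfr1-101.

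By level, 0 of 9 genes passed between hfr1-101 and wild type in WL (edgeR; 3 at an unadjusted p under 0.05, 0 in DESeq2), +FR (3 and 0) or +UVB (2 and 0), against 0.1%, 0.1% and 0.0908% of all genes. Estimates without UV-B were nevertheless large in some genes. Under +FR, CYP79F1 was at 1.27 ± 0.37 (edgeR adjusted p = 0.36) and MAM1 at 0.95 ± 0.26 (edgeR adjusted p = 0.31), both without overlap, and in WL they were at 0.85 ± 0.36 and 0.57 ± 0.26, also without overlap. MAM3 was at -0.70 ± 0.26 in WL, without overlap. Whether the difference between the genotypes changed with light was tested only for the light effects given above. Under +UVB, BCAT4 passed without hfr1-101 replicate 3 (log2 fold change 1.06, edgeR adjusted p = 0.049). Under +FR+UVB, 3 of 9 genes were higher in hfr1-101, against 1.69% of all genes. MAM1 had 90.8, 93.3 and 91.2 CPM in hfr1-101, against 33.2, 42.4 and 31.6 CPM in wild type (log2 fold change 1.36 ± 0.27, edgeR adjusted p = 0.0039). BCAT4 had 37.0, 40.1 and 41.2 CPM in hfr1-101, against 17.0, 18.8 and 16.4 CPM in wild type (1.18 ± 0.27, adjusted p = 0.016). CYP83A1 had 130, 134 and 128 CPM in hfr1-101, against 62.1, 69.7 and 66.4 CPM in wild type (0.99 ± 0.27, adjusted p = 0.043).

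All 3 were separated without overlap and lay close together within hfr1-101, but 1 to 2 genes passed when a library was left out. CYP83A1 was lost in all 6 such fits (0.94 to 1.03), and BCAT4 in all but the fit without hfr1-101 replicate 1 (1.14 to 1.24). MAM1 kept its call. CYP79F1 was 52.6, 46.0 and 49.3 CPM in hfr1-101, against 16.3, 27.7 and 16.6 CPM in wild type (1.29 ± 0.37, edgeR adjusted p = 0.064), and it passed in DESeq2 (adjusted p = 0.033).

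The mean levels of MAM3 and BCAT4 were also put in order across all 12 groups. MAM3 averaged 12.6 CPM in wild type under +FR+UVB, 15.8 in hfr1-101 under +FR+UVB, 17.7 in wild type under +UVB and 21.1 in hfr1-101 under +UVB. Neighbours among these 4 overlapped, and the next group, hfr1-101 under WL (47.3 CPM), did not overlap the group below it. The remaining groups ran up to 76.8 CPM in wild type under WL, each overlapping its neighbour. BCAT4 averaged 17.4 CPM in wild type under +FR+UVB, 24.8 in wild type under +UVB, 39.4 in hfr1-101 under +FR+UVB and 46.2 in hfr1-101 under +UVB. The first 3 of these groups did not overlap, but the gaps were narrow. Wild type under +FR+UVB reached 18.77 CPM and under +UVB began at 18.82 CPM, a contrast that did not pass (edgeR adjusted p = 0.34). Wild type under +UVB reached 36.07 CPM and hfr1-101 under +FR+UVB began at 37.02 CPM. From hfr1-101 under +UVB upwards to uvr8-6 under WL (106.7 CPM) each group overlapped its neighbour.

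Replicates of a group deviated together in these genes. Over 36 libraries, the deviations of MAM1 and CYP79F1 from their group means correlated with a Pearson r of 0.955 (Spearman rho 0.955, and 0.948 for r without the 2 libraries farthest from the median), and those of MAM1 and CYP83A1 with 0.949 (rho 0.937, r 0.935). MAM3 followed CYP79F2 (r 0.827, rho 0.839, r 0.847 without the farthest 2), but MAM3 and MAM1 were only loosely related (r 0.303, rho 0.384, r 0.275). MYB29 deviated with CYP79F1 (r 0.878) and hardly with MAM3 (r 0.028), whereas MYB28 deviated most with CYP79F2 (r 0.710). These are descriptions over 36 pairwise relations, and the deviations share library, depth and scaling.

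**Figure D4:**
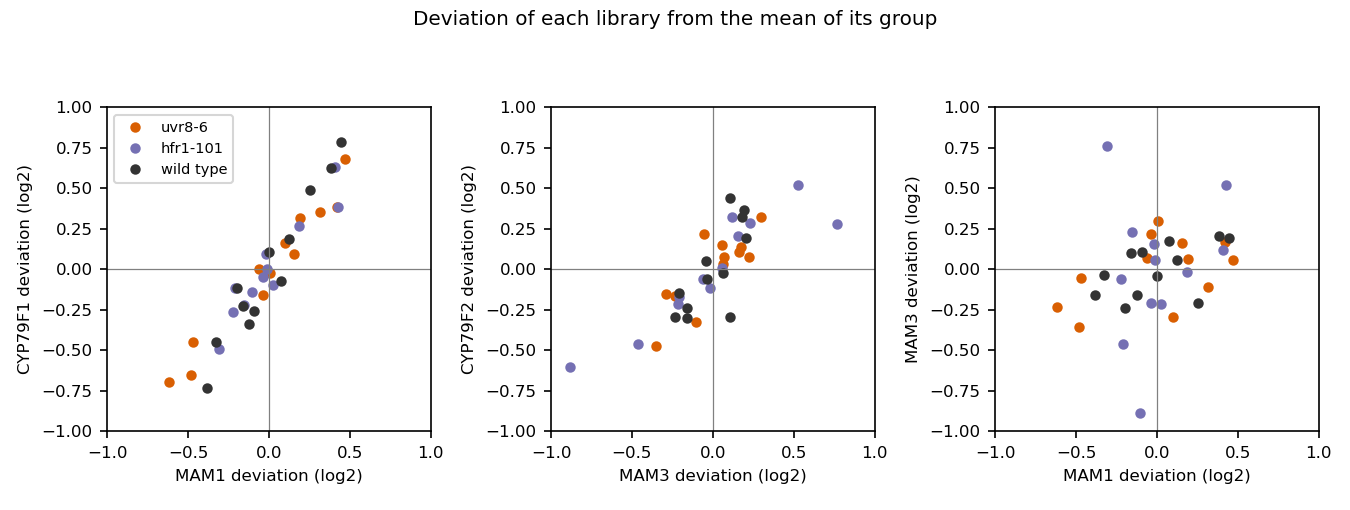
Deviation of each library from the mean of its group, as log2(CPM + 0.5), for MAM1 and CYP79F1 (left), MAM3 and CYP79F2 (middle) and MAM1 and MAM3 (right), with 36 points coloured by genotype. The left panel is a narrow diagonal (r 0.955), the middle panel a broader one (r 0.827) and the right panel a cloud (r 0.303).

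In some libraries all 9 genes lay on the same side of their group means. Replicate 2 under +UVB was above its group mean in all 9 genes in each of the 3 genotypes. Replicate 3 under +UVB was below its group mean in all 9 genes in each genotype, as was replicate 1 in wild type. The same held for replicate 3 in uvr8-6 under +FR and in wild type under WL. The 9 genes deviated together, so these are not 9 independent observations. The share of all genes on the same side in these libraries was not determined. A list of 7 root genes (PLT1, PLT2, WOX5, EXPA7, EXPA18, COBL9 and PYK10) summed to 1620 CPM in the uvr8-6 +FR replicate 3, against 3140 and 2900 CPM in its companions. In the uvr8-6 +FR+UVB replicate 3 the sum was 1650 CPM, against 2920 and 2590 CPM. MAM1 was also the lowest of its group in both of these libraries, at 68.2 and 89.8 CPM. Such sums are weighted towards the most abundant genes of the list and do not show that all 7 moved together. For uvr8-6 under +FR against WL, 2 of the 7 had a negative log2 fold change (median 0.07). The median sum was nevertheless 2897 CPM under +FR and 4198 CPM under WL. The part of tissue composition in these values was not tested.

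The same root list summed to 3647 to 4655 CPM in wild type under +UVB, against 4467 to 4664 CPM under WL, and to 3032 to 3609 CPM under +FR+UVB, against 3456 to 3760 CPM under +FR. Of its 7 genes, 1 passed as lower in both contrasts, WOX5, which had no more than 3 counts in any wild-type +UVB library. A list of 3 green shoot genes summed to 25040 to 26720 CPM under +UVB, against 22400 to 25300 CPM under WL, and to 27520 to 30980 CPM under +FR+UVB, against 17650 to 23030 CPM under +FR. Of these 3, 2 were lower in both contrasts and RBCS1A was higher under +FR+UVB (log2 fold change 0.65 ± 0.17). None of these 10 genes had 0 counts in any library, and their part in the fall of the pathway genes was not tested.

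Further steps of the pathway were read from a list of 15 other genes of chain elongation and core synthesis. Not all of these genes act only in the aliphatic pathway. In wild type, 9 were lower and 2 higher under +UVB against WL (median log2 fold change -0.61), and 10 were lower and 2 higher under +FR+UVB against +FR (median -0.93). Of all genes, 24.7% were lower and 24.5% higher in the first contrast, and 27.5% were lower and 26.9% higher in the second, which are the shares for the lists that follow as well. GSTF11, a glutathione transferase of core synthesis, averaged 2.61 CPM under +UVB and 9.76 CPM under WL (-1.90 ± 0.34, edgeR adjusted p = 3.3e-05). BASS5, which carries the keto acid into the chloroplast, averaged 14.0 CPM under +UVB and 28.1 CPM under WL (-0.996 ± 0.29). IPMI-SSU3, an isomerase subunit of the elongation cycle, averaged 11.5 CPM under +FR+UVB and 34.9 CPM under +FR (-1.60 ± 0.25). SOT17, a sulfotransferase of the last core step, averaged 9.36 CPM under +FR+UVB and 24.1 CPM under +FR (-1.36 ± 0.25).

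UGT74C1 and IPMDH3 were higher in both contrasts and are named after their values were seen. UGT74C1, a glucosyltransferase, averaged 140 CPM under +UVB and 96.0 CPM under WL (0.54 ± 0.14), and IPMDH3, an isopropylmalate dehydrogenase known from leucine synthesis, averaged 76.5 CPM under +UVB and 61.1 CPM under WL (0.32 ± 0.11). In uvr8-6, 0 of the 15 passed in either UV-B contrast (edgeR; 0 and 0 at an unadjusted p under 0.05). Of all genes, 2.68% under +UVB and 2.07% under +FR+UVB against +FR passed there, so 0 of 15 is near the background. In hfr1-101, 8 were lower and 1 higher under +UVB, against 24.9% of all genes in each direction. Under +FR+UVB against +FR, 9 were lower and 1 higher, against 24.9% and 25% of all genes.

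A list of genes that modify the side chain was read in the same way. Of 7 tested, 0 were lower and 1 was higher under +UVB against WL in wild type, and 1 was lower and 2 higher under +FR+UVB against +FR, against 24.7% and 27.5% of all genes as lower. GSL-OH, which hydroxylates the alkenyl side chain, averaged 506 CPM under +UVB and 293 CPM under WL (0.79 ± 0.13, edgeR adjusted p = 6.9e-06), and 613 CPM under +FR+UVB and 299 CPM under +FR (1.04 ± 0.13). It was also higher in uvr8-6 under +FR+UVB against +FR (0.54 ± 0.13, edgeR adjusted p = 0.018). AOP2, a dioxygenase gene named for alkenyl production, averaged 2.30 CPM under +FR+UVB and 5.27 CPM under +FR (-1.19 ± 0.42). Glucosinolates were not measured, so which side chains these Columbia seedlings made is not shown.

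The indolic branch makes glucosinolates from tryptophan. Of its 10 genes, 6 were lower under +UVB against WL (24.7% of all genes) and 5 under +FR+UVB against +FR (27.5% of all genes), none was higher, and the others did not pass (median log2 fold changes -1.02 and -0.94). CYP79B3, which converts tryptophan to its aldoxime, averaged 16.2 CPM under +UVB and 64.4 CPM under WL (-1.99 ± 0.31, edgeR adjusted p = 5.4e-06). Its homologue CYP79B2 averaged 7.47 CPM under +FR+UVB and 56.4 CPM under +FR (-2.91 ± 0.54, edgeR adjusted p = 4.5e-05). MYB122, a factor of this branch, averaged 0.232 CPM under +UVB and 1.59 CPM under WL (-2.75 ± 0.64), which is few reads. In uvr8-6, 0 of the 10 indolic genes passed in either UV-B contrast, as in the aliphatic lists. Of all genes, 2.68% and 2.07% passed there, so this count is near the background.

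**Figure D5:**
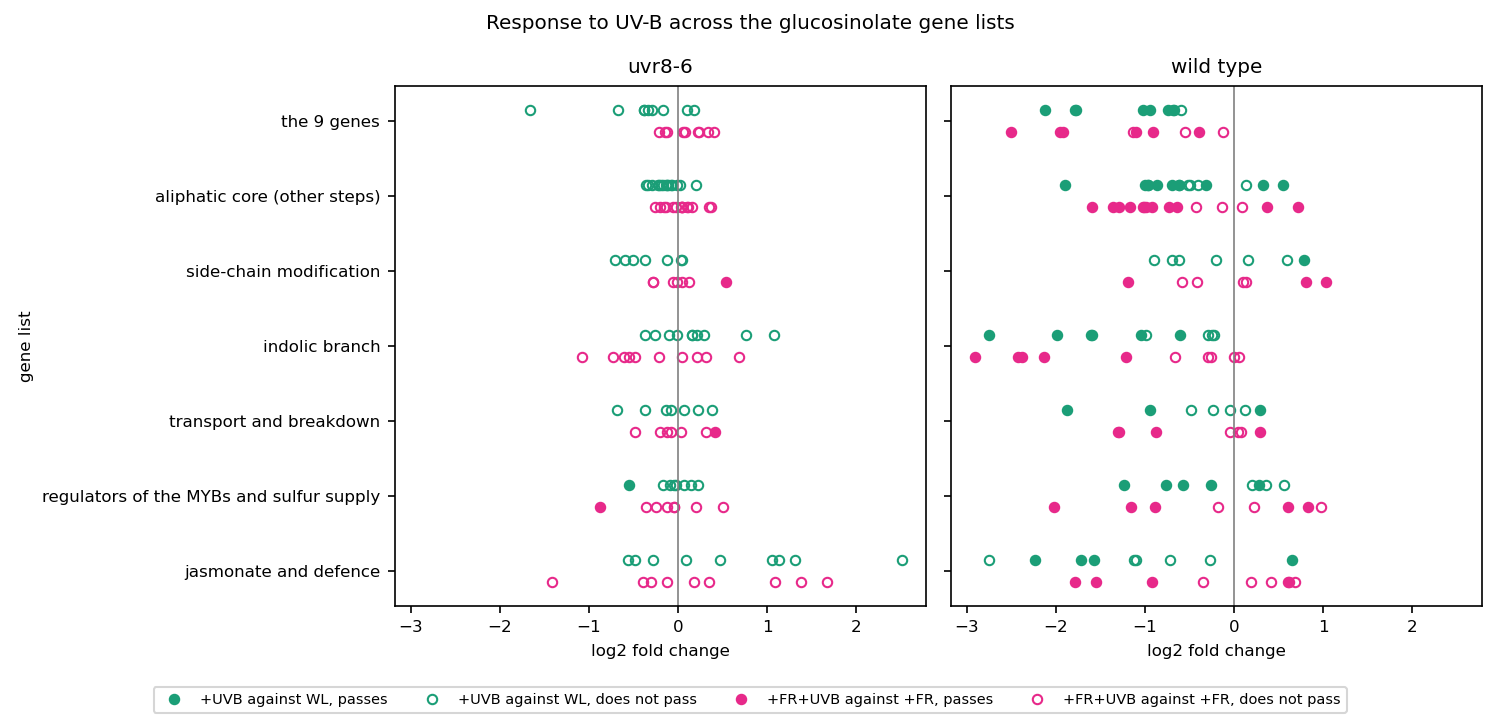
Log2 fold change of every tested gene of 7 lists in uvr8-6 (left) and wild type (right), for +UVB against WL (green) and +FR+UVB against +FR (magenta); filled points passed the edgeR test. In wild type the filled points of the 9 genes and of the indolic branch lie left of 0. In uvr8-6 no point of the 9 genes, of the other aliphatic core genes or of the indolic branch is filled.

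Transport and breakdown genes showed 2 lower and 1 higher of 7 under +UVB against WL, and 3 lower and 1 higher under +FR+UVB against +FR. With 24.7% and 27.5% of all genes lower, these counts are not far from the background. ESM1, an epithiospecifier modifier, averaged 183 CPM under +FR+UVB and 446 CPM under +FR (-1.29 ± 0.24), and GTR2, a glucosinolate transporter, averaged 27.8 CPM under +UVB and 53.4 CPM under WL (-0.94 ± 0.24). ESP, the epithiospecifier protein, averaged 0.691 CPM under +UVB and 2.55 CPM under WL (-1.87 ± 0.55).

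Of 8 regulators of the MYB factors and genes of sulfate activation and sulfur supply, 4 were lower and 1 higher under +UVB against WL, and 3 were lower and 2 higher under +FR+UVB against +FR, against 24.7% and 27.5% of all genes as lower. The second count is near the background. APK2, a kinase that activates sulfate for the sulfotransferases, averaged 14.8 CPM under +FR+UVB and 60.1 CPM under +FR (-2.02 ± 0.31, edgeR adjusted p = 2.8e-06), and 32.8 CPM under +UVB and 77.5 CPM under WL (-1.24 ± 0.30). APK1, its homologue, averaged 39.8 CPM under +UVB and 67.8 CPM under WL (-0.77 ± 0.19). MYC2, a bHLH factor of jasmonate signalling that acts with these MYB proteins, averaged 27.7 CPM under +FR+UVB and 61.7 CPM under +FR (-1.15 ± 0.15). MYC2 was also lower in uvr8-6, with -0.55 ± 0.15 under +UVB against WL (edgeR adjusted p = 0.041) and -0.87 ± 0.15 under +FR+UVB against +FR (edgeR adjusted p = 0.00093).

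Of 9 jasmonate and defence genes, 3 were lower and 1 higher in each of the 2 contrasts, which is near the 24.7% and 27.5% of all genes that were lower. AOS, an enzyme of jasmonate synthesis, averaged 48.6 CPM under +UVB and 159 CPM under WL (-1.71 ± 0.27), and 64.1 CPM under +FR+UVB and 221 CPM under +FR (-1.79 ± 0.27). LOX2, of the same route, averaged 308 CPM under +FR+UVB and 901 CPM under +FR (-1.55 ± 0.46), and VSP2, a storage protein induced by jasmonate, averaged 1.30 CPM under +UVB and 6.15 CPM under WL (-2.24 ± 0.77).

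Last, all 20917 other genes were ranked by how closely they followed the mean standardised level of the 9 genes over the 36 libraries, as a description. The 10 nearest were IPMDH1 (Pearson r 0.977), DJ1F (0.973), AK3 (0.970), SOT18 (0.962), AT1G21440 (0.959), IPMI-SSU3 (0.957), CB5-C (0.952), SUR1 (0.952), BASS5 (0.949) and HMT3 (0.942). Of these, 5 belong to the list of other aliphatic core genes, which held 10 of the nearest 100. IPMDH1 is the dehydrogenase of the elongation cycle, SOT18 a sulfotransferase and SUR1 the C-S lyase of core synthesis. AK3 is an aspartate kinase and HMT3 a homocysteine methyltransferase, both of the methionine route. Over the 12 group means instead of the libraries, 6 of these 10 were again among the nearest 10. Among the 9 genes, BCAT4 followed the mean of the other 8 most closely (r 0.935) and MAM3 least (r 0.719).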

How the data were processed

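Libraries were made with a stranded TruSeq kit. The authors aligned reads to TAIR10 with TopHat2 2.0.13 after FastQC 0.10.2, and the deposited counts per gene were made with HTSeq 0.6.1. A second deposited table holds a signal that the authors scaled with edgeR 3.4.2. It matched TMM-scaled counts to within 0.0283% and was used only for that check.

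Counts were analysed with edgeR 4.0.16 (limma 3.58.1, R 4.3.3), with TMM scaling, 1 quasi-likelihood fit over all 36 libraries and 12 groups, and Benjamini-Hochberg adjustment over all 20926 genes tested. A gene passed at an adjusted p under 0.05. The SE is the absolute log2 fold change divided by the square root of F. CPM values are TMM-scaled, with a pseudocount of 0.5 for deviations. The 27 contrasts were 12 between lights, 8 between genotypes, 6 differences of light effects and the interaction in wild type. Alternatives were library-size scaling, DESeq2 1.42.0, edgeR's likelihood ratio and current quasi-likelihood tests, other filters, fewer genotypes, a replicate block, a minimum fold of 2 and each library left out in turn. Sequences and positions came from RefSeq's TAIR10.1 annotation, in which all 9 genes were matched, and were read with Python 3.11.15, pandas 2.3.3 and biopython 1.88, with scipy 1.17.1 for exact tests. The promoter sequence of MAM3 is not reported here.

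Members and lists were chosen with earlier results of these data known. The text names all 9 members, from each list up to 2 genes with the largest changes among those that passed with no overlap between libraries in each wild-type UV-B contrast, and the 10 genes most like the members. Other genes are named after their values were seen, which is said there or follows from a small count. Same-numbered replicates deviated together, with every correlation over 0.1, for wild type under +UVB and WL (0.23, 0.29 and 0.40) and for hfr1-101 and wild type under +FR (0.27, 0.27 and 0.40). The block changed neither member count. Replicates of a group differed by more than sampling noise.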

Additional observations from a re-analysis of the deposited data

Results flagged for a closer look

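The effect of UV-B differed between uvr8-6 and wild type in 8 tests of the difference, each a contrast of light effects in edgeR with 3 libraries per group. Under +UVB against WL, the effect in uvr8-6 minus that in wild type was 2.30 for MAM3, 1.62 for BCAT4 and 1.04 for CYP79F2 on the log2 scale. Under +FR+UVB against +FR, it was 2.35 for MAM3, 2.00 for BCAT4, 1.84 for CYP79F2, 1.32 for MAM1 and 1.15 for CYP83A1.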

How the results depend on the processing

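Over the 27 contrasts, 3780 values of single genes were recomputed, of which 3675 kept their side of the threshold, 56 lost and 49 gained a call. No called value changed sign, and 134 values called under neither setting did. With a fold minimum of 2, the counts of passing genes were 1 for wild type under +FR, 4 under +UVB, 1 for hfr1-101 under +FR and 3 under +UVB. For uvr8-6 under +FR against WL, 3 genes passed with DESeq2, the likelihood ratio test, the current quasi-likelihood test and edgeR's own filter, and 2 with the replicate block. For uvr8-6 under +UVB against WL, 1 passed (MYB76) with the likelihood ratio test, the current quasi-likelihood test and the replicate block. For hfr1-101 under +FR+UVB against +UVB, 1 passed (CYP79F2) with library size, DESeq2 and the likelihood ratio test. The cause was not tested. In the labels, same-numbered samples share only a number in every contrast, also in the 2 contrasts whose replicates deviated together. The replicate block changed no other count by over 1.5 times.

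Leaving out 1 library at a time gave, in wild type, 1 to 2 passing genes under +FR, 5 to 9 under +UVB, 5 to 6 under +FR+UVB against +FR and 0 to 1 under +FR+UVB against +UVB. In uvr8-6 it gave 1 to 2 under +FR (2 without WL replicate 2), 0 to 1 under +UVB (1 without +UVB replicate 2), and 0 to 1 under +FR+UVB against +UVB. In hfr1-101 it gave 1 to 2 under +FR, 5 to 8 under +UVB, 4 to 5 under +FR+UVB against +FR and 0 to 2 under +FR+UVB against +UVB. Against wild type it gave 4 to 7 for uvr8-6 under +UVB and 6 to 7 under +FR+UVB, and 0 to 1 for hfr1-101 under +UVB and 1 to 2 under +FR+UVB. For the difference of the UV-B effect between uvr8-6 and wild type it gave 2 to 4 in white light and 4 to 5 with low R:FR. MYB76 had so few reads that depth limits its values.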

Other observations

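Within the neighbouring pairs, the ratio of the members was compared between the genotypes, a comparison chosen after the values were seen. In WL, MAM3 over MAM1 was 0.276, 0.399 and 0.437 in uvr8-6 and 0.244, 0.249 and 0.369 in hfr1-101, against 0.676, 0.615 and 0.812 in wild type. Every mutant library was below every wild-type library, and the ratio of geometric means was 0.523 for uvr8-6 and 0.405 for hfr1-101. Under +FR the same ratio was 0.504, 0.463 and 0.718 in uvr8-6 and 0.404, 0.421 and 0.316 in hfr1-101, against 1.00, 0.909 and 0.891 in wild type.

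CYP79F1 over CYP79F2 went the other way without UV-B. In WL it was 3.10, 2.36 and 2.11 in uvr8-6 and 3.68, 3.08 and 1.97 in hfr1-101, against 1.21, 1.58 and 0.828 in wild type, without overlap. Under +FR it was 2.02, 1.97 and 1.14 in uvr8-6 and 2.14, 2.05 and 3.02 in hfr1-101, against 0.724, 1.08 and 1.11 in wild type. With UV-B, MAM3 over MAM1 was 0.194, 0.145 and 0.180 in hfr1-101 under +FR+UVB, against 0.408, 0.255 and 0.428 in wild type, again without overlap (ratio of geometric means 0.484). Under +UVB it was 0.676, 0.413 and 0.602 in uvr8-6, against 0.401, 0.274 and 0.318 in wild type, so that here uvr8-6 was above wild type. Of 16 comparisons of these ratios between a mutant and wild type, 10 had no overlap, each with a two-sided exact permutation p of 0.1 (0.16 after Benjamini-Hochberg adjustment), the smallest that 3 libraries against 3 allow, so none can pass the threshold. The comparisons that overlapped were those of CYP79F1 over CYP79F2 with UV-B, under +UVB and +FR+UVB in both mutants. Those of MAM3 over MAM1 in uvr8-6 under +FR+UVB and in hfr1-101 under +UVB overlapped too. Both mutants share the wild-type libraries of each light. The 2 ratios are not independent of each other, because MAM1 deviated with CYP79F1 (r 0.955) and MAM3 with CYP79F2 (r 0.827). How often other gene pairs had no overlap was not determined.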
